A study of Mus musculus with 8 samples.

Results

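Lyve1-low border-associated macrophages were taken as single-cell droplets that carried the macrophage genes Mrc1 and Pf4 but little or no Lyve1 and Cd163, and 203 of 46216 droplets from 8 mouse brains met this definition. Mrc1 encodes the mannose receptor and Pf4 the chemokine platelet factor 4. A droplet qualified when it held at least 2000 unique molecular identifiers (UMIs, counted RNA molecules), under 20% of them mitochondrial, and when, per 10000 UMIs, the sum of Mrc1, Pf4, F13a1 and Cbr2 was at least 5 with both Mrc1 and Pf4 detected. Lyve1 plus Cd163 had to be under 0.5 and Tyrobp, a myeloid adaptor, at least 2. Genes of other cells were capped, with P2ry12, Tmem119, Sall1 and Siglech of microglia under 1 in sum, Gpnmb, Arg1 and Fabp5 of inflammatory macrophages under 10, Cd209a and Flt3 of dendritic cells under 1, Cldn5 and Flt1 of endothelium under 2, and Col1a1 and Col1a2 of fibroblasts under 10. The levels of these genes in the selected cells are therefore set by the selection and are given as description only.

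Border-associated macrophages are long-lived or slowly replaced macrophages of the perivascular space, the meninges and the choroid plexus. Lyve1, a hyaluronan receptor, marks those that lie along vessels, while Lyve1-low cells often carry MHC class II, the proteins that present antigen to CD4+ T cells. After injury monocytes that enter from blood can take up a similar position and similar markers, so a Lyve1-low profile alone does not give the origin of a cell.

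The mice were adult females labelled Bl/J6 with a photothrombotic stroke (PT) 4 mm wide in the right sensorimotor cortex, and tissue was taken 6 days after PT. Control mice (n = 4) carried a minipump with saline and ancrod mice (n = 4) one delivering 2.4 U of ancrod per day, implanted 2 days before PT; ancrod is a snake venom protease that depletes fibrinogen, the clotting protein that leaks into the lesion. Each mouse gave 1 library of unsorted cells from tissue stripped of meninges, and mice 1 to 3 of each group formed batch 1 of injury and sequencing while mouse 4 formed batch 2. Every mouse had the same injury, no uninjured brain was compared, and mice in the study were 8 to 12 weeks old. Library totals ran from 97861434 to 122758649 UMIs in control mice and from 126682918 to 142139441 in ancrod mice, ranges that did not overlap.

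The selected cells were deeply covered, with a median of 21687 UMIs (2064 to 83324), 4559 genes and 3.45% mitochondrial UMIs. Of the 203 cells, 179 had no UMI of Lyve1 or Cd163 at all. Because 1 such UMI counts for less per 10000 in a deep cell, the limit tolerated 1 UMI in deep but not in shallow cells. A shallow cell can in turn pass because few of its molecules were counted, so depth can act both ways. The cell closest to the Lyve1 limit from inside had 0.483 and the closest from outside 0.504 UMIs per 10000, and 195 droplets failed on Lyve1 and Cd163 alone. On the sum of Mrc1, Pf4, F13a1 and Cbr2 these neighbours stood at 5.07 and 4.73 (46 droplets failed on it alone), on the inflammatory genes at 9.93 and 10.0 (250 droplets) and on the microglial genes at 0.997 and 1.00 (296 droplets). The remaining limits decided few droplets, with neighbours at 0.836 and 1.27 for the dendritic genes, 1.64 and 4.02 for the endothelial genes and 2.82 and 18.9 for the fibroblast genes. No droplet failed on Tyrobp alone, and the selected cell closest to that limit had 2.51. The inflammatory and microglial limits thus cut through a continuous range of cells.

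Marker genes outside the definition told these cells from microglia, and some but not all of them told the cells from inflammatory macrophages. In CPM (UMIs of a gene scaled to a total of 1000000, summed over the cells of a mouse, median of the 8 mice), Ms4a7, a membrane protein of non-parenchymal brain macrophages, stood at 783 in the selected cells and at 20.5 in microglia. Dab2, an endocytic adaptor, stood at 1064 against 96.4, and Stab1, a scavenger receptor, at 592 against 167. The markers Cd36, a fatty acid scavenger receptor, and Ccl7, a monocyte-attracting chemokine, stood at 209 and 601 CPM against 1.14 and 14.1 CPM in microglia. In all 5 the level was above that of microglia and above that of cell-free RNA in the same libraries, where the highest of them was Ms4a7 at 147 CPM. In inflammatory macrophages Ms4a7 was as high (788 CPM) and Cd36 overlapped (48.1 to 282 CPM per mouse, against 87.3 to 750 CPM), while Dab2 (159 CPM), Stab1 (309 CPM) and Ccl7 (91.8 CPM) were lower there. Of 13 border-associated macrophage markers outside the definition 8 were higher than in inflammatory macrophages in every mouse, as were 36.0% of all genes compared, and Apoe, a lipid carrier, was lower. After each cell was thinned to 5000 UMIs, 39.3% of 178 selected cells had a UMI of Cd36 and 40.4% one of Ccl7, compared with 0.500% and 2.45% of 12996 microglia. Median depth before thinning was 21687 UMIs in the selected cells and 13940 in microglia, and 25 selected cells were too shallow to thin.

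Marker sets of lymphocytes, dendritic cells and neutrophils were low in the summed cells, and those of microglia and monocytes were not. Of 8 T, NK and B cell markers in the files 3 were detected, with sums of 4.02 to 14.4 CPM in control and 4.80 to 15.3 CPM in ancrod mice. The 6 dendritic cell markers outside the definition summed to 2.39 to 20.1 and 3.28 to 17.1 CPM with Xcr1 and Ccr7 at 0, and neutrophil markers to 40.2 to 123 and 60.2 to 97.7 CPM with Retnlg and Ly6g at 0. The 7 microglia markers outside the definition, such as Cx3cr1, summed to 1764 to 2447 CPM in control and 1295 to 2110 CPM in ancrod mice. Cx3cr1, the fractalkine receptor, stood at a median of 305 CPM against 1595 CPM in microglia. Monocyte markers stood at 130 to 821 CPM in control and 594 to 1287 CPM in ancrod mice with only Fcnb at 0. The sum of Ly6c2, Chil3 and Plac8 alone reached 1 or more UMI per 10000 in 34 cells, 14 of them in ancrod mouse 1. Ccr2, another listed monocyte marker, was not part of that count, and 46.3% of the selected cells had a Ccr2 UMI without thinning. Astrocyte markers were uneven, at 29.8 to 799 CPM in control and 85.7 to 1714 CPM in ancrod mice, with high Slc1a2, a glutamate transporter, in control mouse 4 (603 CPM) and ancrod mouse 1 (920 CPM). Neuron markers reached 351 CPM in ancrod mouse 4. Of the selected cells 22 carried neural markers at 2 or more UMIs per 10000. The doublet caller Scrublet scored all droplets, and the top 4.06 to 5.02% per mouse, a preset share, were marked. Among the marked droplets were 13 selected cells. Shared barcodes were rare, with 57 to 85 per library and 2 selected cells whose barcode also occurred in another library.

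To ask whether these cells were recovered more often after fibrinogen depletion, their share of all droplets was compared between mice. A share of droplets depends on how readily each cell type leaves the tissue on dissociation, so a change in cell number and a change in yield cannot be told apart. Lyve1-low cells made up a larger share of droplets in ancrod than in control mice. Control mice held 11 of 5743, 14 of 5564, 18 of 6277 and 18 of 5555 droplets, which is 0.192%, 0.252%, 0.287% and 0.324%. Ancrod mice held 36 of 5913, 42 of 5909, 32 of 6175 and 32 of 5080 droplets, which is 0.609%, 0.711%, 0.518% and 0.630%. The lowest ancrod mouse stood above the highest control mouse, although their 95% exact binomial intervals, 0.355 to 0.731% and 0.192 to 0.512%, overlapped. The mean was 0.263% ± 0.056 in control and 0.617% ± 0.079 in ancrod mice (SD, n = 4 each), a ratio of 2.34 and a difference of 0.353 percentage points (exact two-sided permutation test over 70 arrangements, p = 0.0286, the smallest these 8 mice allow). Adjusted for the 2 share tests made, the exact permutation p was 0.0571. Within batch 1 the difference was 0.369 percentage points (exact permutation p = 0.10, the smallest for 3 against 3), and in batch 2, with 1 mouse per group, the shares were 0.324% and 0.630%. Intervals cover counting error only, and summed UMIs of the selected cells differed alike, at 148920 to 446475 in control and 719554 to 958309 in ancrod mice.

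**Figure D1:**
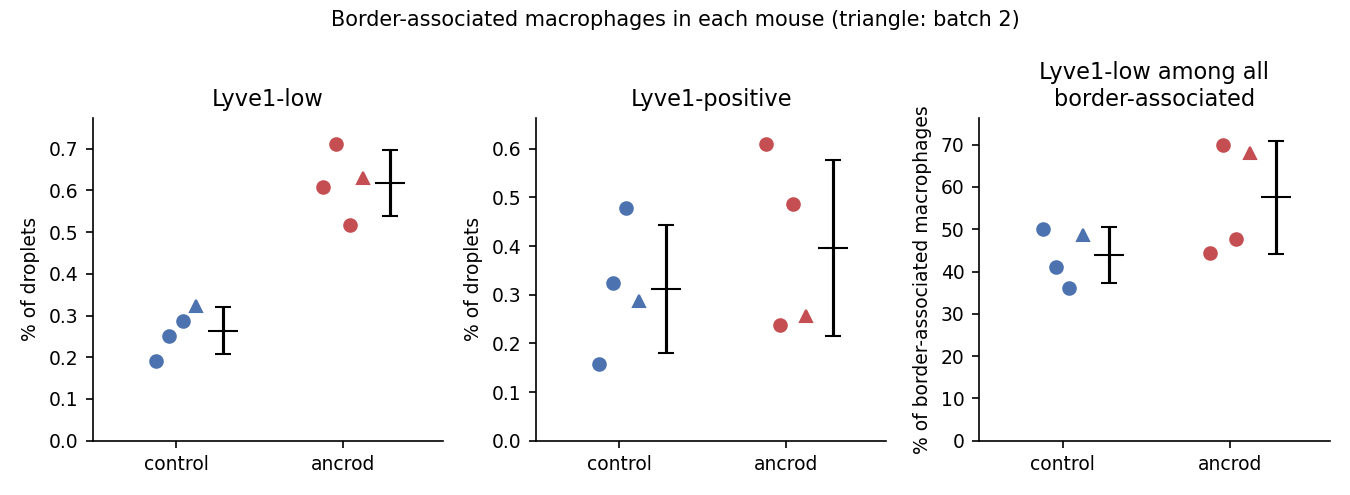
Percent of droplets that were Lyve1-low (left) or Lyve1-positive (middle), and percent of border-associated macrophages that were Lyve1-low (right), in each mouse, with circles for batch 1, triangles for batch 2 and bars for the mean ± SD of 4 mice. The 4 ancrod mice (0.518 to 0.711% of droplets) sit above the 4 control mice (0.192 to 0.324%), while the groups overlap in the other panels.

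The size of the difference followed the limits of the definition, but its direction did not. Cells without a UMI of Lyve1 or Cd163 differed by 0.318 percentage points, cells without monocyte markers by 0.285 and cells without neural markers by 0.293, each without overlap between groups (exact permutation p = 0.0286). Thinning every droplet to 5000 UMIs before selection gave 0.347% ± 0.080 and 0.604% ± 0.103 (SD, n = 4), a difference of 0.257 percentage points. Without the limit on Gpnmb, Arg1 and Fabp5 the shares were 0.642% and 1.31%, and with the microglial limit at 3 they were 0.534% and 1.07%. As a share of Tyrobp-bearing droplets, which made up 63.7% of droplets in control and 63.3% in ancrod mice, the means were 0.412% and 0.992%.

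Set against all border-associated macrophages, the Lyve1-low share did not separate the groups. It was 50.0%, 41.2%, 36.0% and 48.6% in control mice and 44.4%, 70%, 47.8% and 68.1% in ancrod mice. Control and ancrod mice overlapped, and only ancrod mice 2 and 4 stood above every control mouse. The means were 44.0% ± 6.57 and 57.6% ± 13.3 (SD, n = 4), a difference of 13.6 percentage points (exact permutation p = 0.171, also after adjustment), and it was 1.81 percentage points after thinning (exact permutation p = 0.83). Lyve1-positive cells, which met the same limits with Lyve1 plus Cd163 at 2 or more, numbered 166 and made up 0.312% ± 0.132 of droplets in control and 0.397% ± 0.181 in ancrod mice. Inflammatory macrophages, defined by Gpnmb, Arg1 and Fabp5 at 10 or more, made up 3.90% ± 1.51 and 5.78% ± 0.994. Both ranges overlapped between groups.

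Division genes were detected in part of the Lyve1-low cells. At 5000 UMIs per cell, 20.8% of them and 2.55% of microglia had a UMI of Mki67, a proliferation marker, and 19.7% and 2.52% one of Top2a, a topoisomerase of dividing cells. Lyve1-positive cells also stood above microglia in Mki67, at medians of 58.8 and 16.8 CPM, against 159 CPM in Lyve1-low cells. Of 9 cell cycle genes at 50 CPM or more, 3 were higher than in Lyve1-positive cells in all 7 mice compared, as were 7.75% of all genes. Without thinning, at least 2 of 5 division genes were detected in 61 of 203 cells, at 23.8% ± 10.3 in control and 33.2% ± 10.1 in ancrod mice (SD, n = 4), with overlapping ranges of 16.7 to 38.9% and 23.8 to 46.9%. The depth of single cells bears on such a count, and the median UMIs per cell also overlapped between groups.

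What the Lyve1-low cells expressed was first set beside Lyve1-positive cells within each mouse, as description without a test because both classes were cut from the same droplets by their genes. In 7 mice with at least 10 cells of each class, 295 of 3808 genes at 50 CPM or more in either class were higher in the Lyve1-low cells of every mouse (7.75%) and 315 were lower (8.27%). A gene could pass this floor through the class where it was high, so counts of genes are given as description. Ccr2, the receptor with which monocytes follow Ccl2 and Ccl7 into tissue, led the higher genes at a median of 202 against 2.23 CPM (median log2 ratio 6.08). H2-Eb1, an MHC class II chain, followed at 830 against 16.5 CPM, but at 437 against 359 CPM in control mouse 4. Of 6 MHC class II genes above the floor only H2-Eb1 was higher in every mouse, while the median of the 6 log2 ratios was 4.20. Below Tnip3 and St18 came Thbs1, the matrix protein thrombospondin 1, at 170 against 4.47 CPM (median log2 ratio 4.40). Tnip3, St18, Cytip, Chil3, Plbd1, Xylt1, Runx3, Atp8b4 and Tmem51 completed the 12 highest, with log2 ratios of 3.45 to 5.00. Of 11 monocyte markers only Ccr2, Chil3 and S100a4 reached 50 CPM in either class, and they did so through the Lyve1-low cells, where they were higher in every mouse. Among growth factors and cytokines, Il1b, the cytokine interleukin 1β, was higher in every mouse.

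The genes lower in Lyve1-low cells included several that mark resident perivascular macrophages. Vcam1, an adhesion molecule, stood at 26.1 against 505 CPM (median log2 ratio -4.03) and Vsig4, a complement receptor, at 11.9 against 209 CPM. Fcna (ficolin A, a complement-activating lectin) stood at 26.1 against 296 CPM and Cd209f, a C-type lectin, at 23.3 against 220 CPM. Ccn1, P3h2, Nrap, Hbegf, C2, Colec12, Ccl24 and Cpne8 were the other 8 of the 12 lowest, at log2 ratios of -3.32 to -2.68. Of 15 border-associated macrophage markers outside the definition, 9 were lower in every mouse, among them Stab1, Folr2, Dab2 and Maf, and only Clec12a was higher. Of 10 genes of heme and iron handling, Hmox1 (heme oxygenase 1), Slc40a1 (the iron exporter) and Blvrb were lower and none higher. Igf1, Tgfb1, Gas6, Gdf15 and Hbegf, growth factors, were lower as well.

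**Figure D2:**
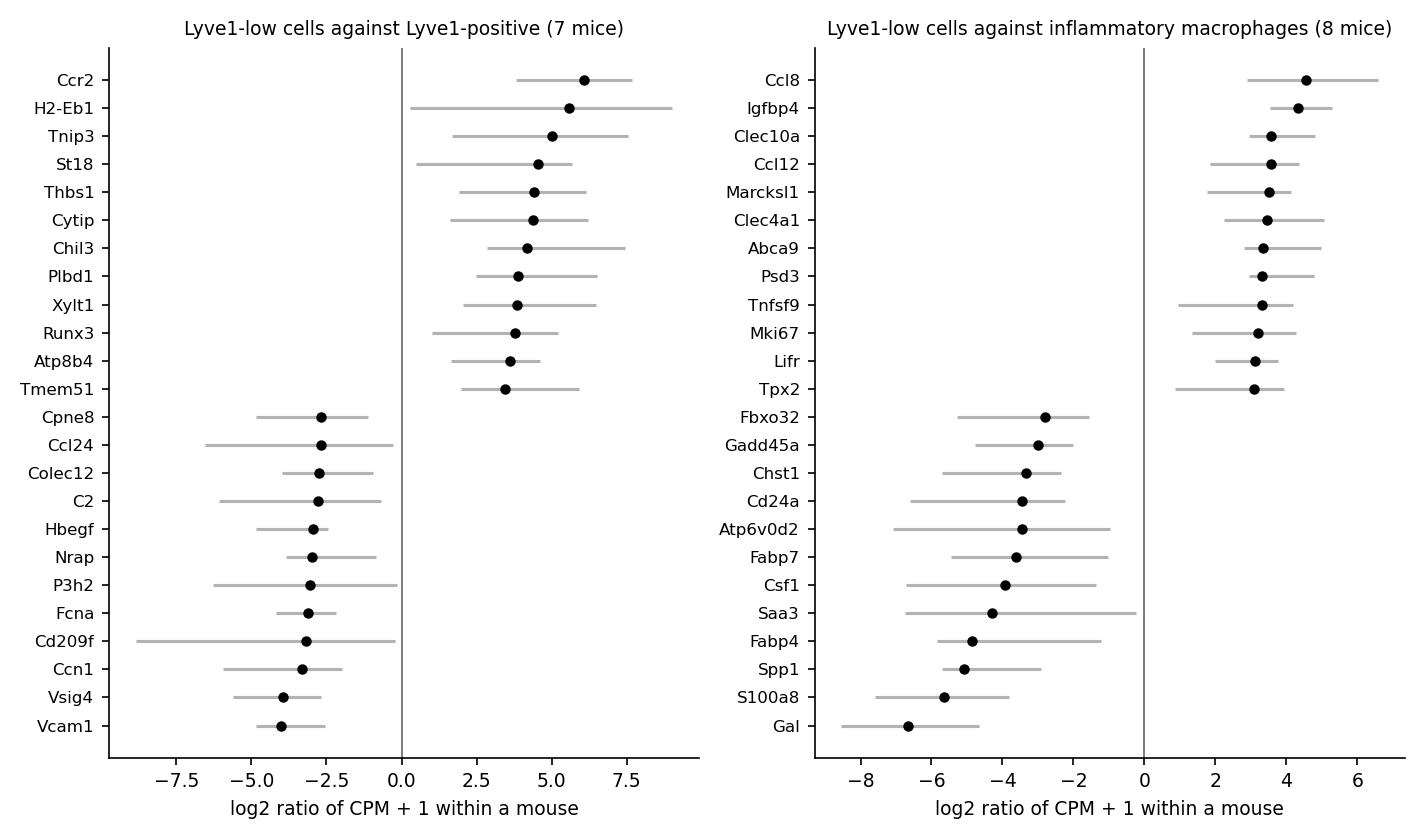
Median over mice of the within-mouse log2 ratio of CPM (1 added) in Lyve1-low cells, against Lyve1-positive cells (7 mice) and against inflammatory macrophages (8 mice), for the 12 highest and 12 lowest genes outside the definition, with lines from the lowest to the highest mouse. Ccr2 stands highest against Lyve1-positive cells (6.08) and Vcam1 lowest (-4.03), while Ccl8 (4.55) and Gal (-6.66) mark the ends against inflammatory macrophages.

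Set beside the 2258 inflammatory macrophages, over 8 mice, 1342 of 3723 genes were higher in Lyve1-low cells of every mouse (36.0%) and 335 lower (9.00%). Ccl8, a chemokine of perivascular macrophages, stood at 509 against 21.1 CPM (median log2 ratio 4.55), Igfbp4, a binding protein of insulin-like growth factors, at 165 against 7.26 CPM, and Clec10a, a C-type lectin, at 55.6 against 3.37 CPM. Tnfsf9 was among the 12 highest, at 67.3 against 7.72 CPM, with Ccl12, Marcksl1, Clec4a1, Abca9, Psd3, Mki67, Lifr and Tpx2. All 9 cell cycle genes above the floor, 5 of 6 MHC class II genes and 8 of 13 chemokines were higher in every mouse. Spp1, or osteopontin, was far lower at 1535 against 50440 CPM, and cell-free RNA held it at 13760 CPM, above its level in the Lyve1-low cells. Gal, S100a8, Fabp4, Saa3, Csf1, Fabp7, Atp6v0d2, Cd24a, Chst1, Gadd45a and Fbxo32 were the other lowest genes, and 11 of 15 lysosome genes, 9 of 14 scavenger and lipid genes and 6 of 9 glycolysis genes were lower in every mouse.

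Within the Lyve1-low cells, the MHC class II genes ranged widely from cell to cell. The sum of H2-Aa, H2-Ab1, H2-Eb1 and Cd74 was under 1 UMI per 10000 in 114 cells, 72 of them without a UMI, and at least 100 in 41 cells, up to 757. At a cut of 10, chosen after the values were seen, 66 cells (32.5%) were high, with a median of 164, and 137 low, with a median of 0, and only 9 cells lay between 5 and 20. High cells made up 27.3%, 21.4%, 33.3% and 16.7% in control mice and 38.9%, 40.5%, 31.3% and 31.3% in ancrod mice, so control mouse 3 lay inside the ancrod range. The high cells were shallower, at a median of 17039 UMIs against 25820.

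The ends of this range differed in further genes, chosen for display after their values were seen. Ccr2 stood at 541 CPM in high and 95.1 CPM in low cells, and Il1b at 901 and 127 CPM. Thbs1 stood at 460 and 89.3 CPM, and Tgfbi, a secreted matrix protein, at 767 and 200 CPM, and all 4 were higher in the high cells of 8 of 8 mice. The control mice had only 3, 3, 6 and 3 high cells, so a direction there rests on few cells. At the other end, Folr2, the folate receptor β of resident macrophages, stood at 33.5 CPM in high and 306 CPM in low cells. Ccl8 stood at 92.8 and 899 CPM and Gas6, a ligand of receptors that clear dying cells, at 78.7 and 505 CPM, and these 3 were lower in 8 of 8 mice. Igf1 (35.9 and 337 CPM) and Ccl7 (129 and 732 CPM) were lower in 7 of 8 mice. Over all 6193 genes with at least 100 UMIs, 777 (12.6%) were higher and 2298 (37.1%) lower in the high cells of at least 6 mice. The share of all genes at 7 or 8 of 8 mice was not counted. Of 14 border-associated macrophage markers outside the definition 2 (Ms4a7 and Clec12a) were higher and 10 lower, and of 12 C-type lectin genes 7 were higher and 2 lower. Of the 203 cells, 45 had UMIs of both Ccr2 and Ccl7, 49 of Ccr2 alone, 63 of Ccl7 alone and 46 of neither. At 5000 UMIs per cell these counts were 21, 53, 51 and 53 of 178 cells, so the overlap moved with depth.

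**Figure D3:**
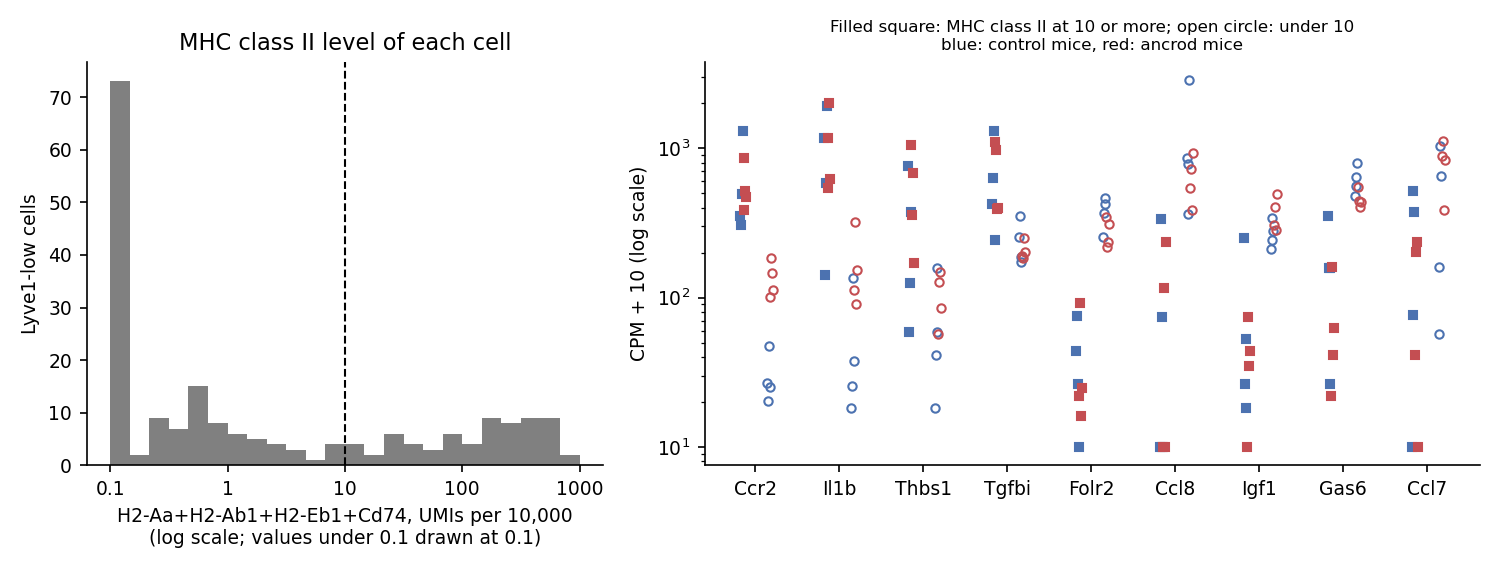
Number of cells by summed MHC class II level (UMIs per 10000, log axis, left) and CPM plus 10 (log axis, right) of 9 genes in each mouse, with filled squares for its cells at 10 or more, open circles for those under 10, blue for control and red for ancrod. The high cells (66) carry more Ccr2, Il1b, Thbs1 and Tgfbi and the low cells (137) more Folr2, Ccl8, Igf1, Gas6 and Ccl7.

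Ancrod and control mice were then compared gene by gene on counts summed over the Lyve1-low cells of each mouse. Of 6794 genes tested, 2 passed an adjusted p of 0.05 in edgeR's quasi-likelihood test (0.0294% of genes), both higher in ancrod mice, and 395 (5.81%) had an unadjusted p under 0.05. The groups did not overlap for 123 genes higher in ancrod mice (1.81%) and 119 lower (1.75%), and the median log2 fold change over all genes was -0.01, with 48.5% of genes above 0 and 51.5% below. CPM in this comparison and in the marker sums of other cell types are scaled by edgeR's TMM factors, and those that describe classes and single cells by summed UMIs alone.

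Clec4e, which encodes Mincle, was the gene with the lowest p. Mincle is a C-type lectin receptor that senses microbial glycolipids and signals of dying cells and acts through the adaptor Fcer1g and the kinase Syk. The control mice held 3, 6, 3 and 2 UMIs, or 20.5, 24.1, 8.13 and 4.79 CPM, and the ancrod mice 94, 93, 70 and 68 UMIs, or 113, 104, 100 and 74.4 CPM. Every ancrod mouse stood above every control mouse, with at least 74.4 CPM against at most 24.1 CPM. The level rose from 14.4 ± 9.36 to 97.9 ± 16.6 CPM (SD, n = 4), and the log2 fold change was 2.98 (SE 0.37, edgeR adjusted p = 0.0130). Without control mouse 1, control mouse 3 or ancrod mouse 3 the log2 fold change was 3.15, 2.78 and 2.97 but the edgeR adjusted p was 0.0774, 0.260 and 0.0858. With the microglial limit at 3 the log2 fold change was 1.80 (edgeR adjusted p = 0.0727).

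After thinning, the share of cells with a Clec4e UMI overlapped between the groups. At 5000 UMIs per cell it was 0%, 11.1%, 17.7% and 5.88% in control mice and 31.3%, 20.6%, 20.7% and 16.7% in ancrod mice, so control mouse 3 stood above ancrod mouse 4. Over all mice the share was 18.5%, compared with 0.431% in microglia, and 28.1% without thinning. Unthinned, the cells with a Clec4e UMI were 1 of 11, 2 of 14, 3 of 18 and 2 of 18 in control mice. They were 16 of 36, 9 of 42, 15 of 32 and 9 of 32 in ancrod mice, and the depth of single cells bears on these counts. In the MHC class II low cells alone Clec4e stood at 25.1, 15.7, 7.52 and 2.50 CPM in control and at 69.6, 40.4, 80.6 and 86.9 CPM in ancrod mice. In the high cells it stood at 0, 49.1, 8.28 and 21.2 CPM and at 201, 202, 155 and 29.8 CPM. The groups did not overlap in low cells and overlapped in high cells, where each control mouse had 3 to 6 cells.

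Clec4e lies on chromosome 6 from 123258748 to 123266829 on the minus strand (GRCm39), beside Clec4d, the gene of a partner receptor of Mincle, at 123239070 to 123252230 on the plus strand. Its promoter is shown because Clec4e is the gene that carries the comparison. The 250 bases before its start, from RefSeq in GRCm38.p6 at chr6:123289872-123290121, minus strand, 5′ to 3′, carry matches to 2 of 4 motifs in capitals.
Clec4e promoter: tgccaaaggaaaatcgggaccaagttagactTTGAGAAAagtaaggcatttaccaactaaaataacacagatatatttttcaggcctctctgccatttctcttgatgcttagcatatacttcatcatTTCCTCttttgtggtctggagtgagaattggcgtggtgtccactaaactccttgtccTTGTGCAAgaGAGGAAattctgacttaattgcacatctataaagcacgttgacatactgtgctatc
The motifs, chosen with this promoter in view, were C/EBP as TTNNGNAA, PU.1 as GAGGAA, AP-1 as TGANTCA and kappaB as 3 G, any 5 bases and 2 C, each searched on both strands. C/EBP letters matched at -219 to -212 and at -66 to -59 from the start, and PU.1 letters at -123 to -118, on the reverse strand, and at -56 to -51. No match overlapped another. Of 32851 promoters of this length, 36.8% held the C/EBP letters, 23.3% the PU.1, 6.75% the AP-1 and 45.8% the kappaB letters, so a match is common and is given as description only. Cebpb, which encodes a C/EBP factor, stood at 880 ± 122 CPM in control and 1229 ± 228 CPM in ancrod mice without overlap (SD, n = 4, log2 fold change 0.48, edgeR adjusted p = 0.669). Of 13 tested macrophage transcription factors 5 were higher and 8 lower, with 1 each way free of overlap. Of all genes tested, 1.81% were higher and 1.75% lower without overlap. A link of any of them to Clec4e was not tested.

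Tnfsf9, the ligand of the T cell costimulatory receptor 4-1BB, was the other gene called. It lies on chromosome 17 from 57412298 to 57414769 on the plus strand (GRCm39). Control mice stood at 47.8, 36.2, 35.2 and 45.5 CPM and ancrod mice at 133, 92.1, 123 and 155 CPM. The control mice were close together and all below the lowest ancrod mouse. The level rose from 41.2 ± 6.41 to 126 ± 26.3 CPM (SD, n = 4), and the log2 fold change was 1.63 (SE 0.24, edgeR adjusted p = 0.0357). The call held under 8 of 25 alternative settings, and that of Clec4e under 18 of 25. Leaving out any mouse but ancrod mouse 2 gave a log2 fold change of 1.51 to 1.72 and an edgeR adjusted p of 0.0837 to 0.280. At 5000 UMIs per cell 23.0% of Lyve1-low cells and 13.5% of microglia had a Tnfsf9 UMI, and Tnfsf9 UMIs were thus found in microglia too.

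**Figure D4:**
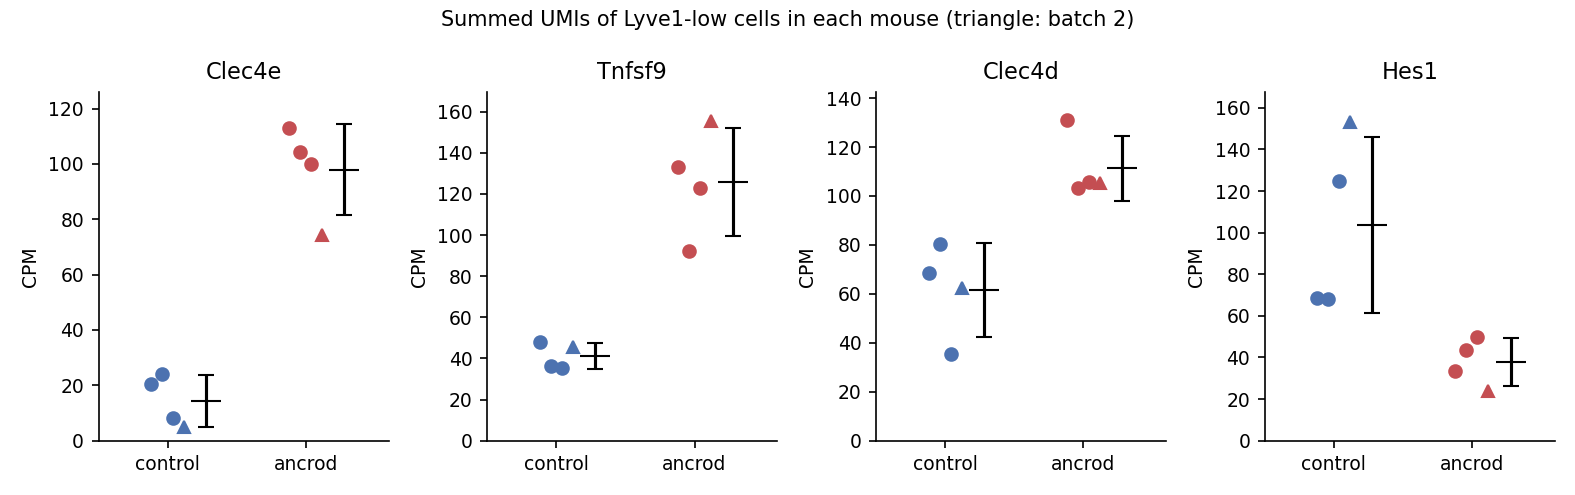
CPM of Clec4e, Tnfsf9, Clec4d and Hes1 in the summed Lyve1-low cells of each mouse, with circles for batch 1, triangles for batch 2 and bars for the mean ± SD of 4 mice. Clec4e rises from 14.4 to 97.9 CPM and Tnfsf9 from 41.2 to 126 CPM, while Clec4d (61.5 and 111 CPM) and Hes1 (104 and 37.9 CPM) separate the groups without passing the adjusted test.

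Other genes separated the groups without passing the test, and are given as values. Among those higher in ancrod mice, Clec4d stood at 61.5 ± 19.1 and 111 ± 13.1 CPM (log2 fold change 0.90, edgeR adjusted p = 0.635). Ccr2 stood at 82.0, 80.3, 184 and 160 CPM in control and at 324, 262, 224 and 212 CPM in ancrod mice (log2 fold change 0.94, edgeR adjusted p = 0.635). Thinned to 5000 UMIs, the share of cells with a Ccr2 UMI was 20%, 11.1%, 29.4% and 17.7% in control mice. It was 56.3%, 50%, 51.7% and 43.3% in ancrod mice, and 1.03% in microglia. Id3, a regulator of differentiation, stood at 31.6 ± 6.08 and 97.8 ± 43.4 CPM (log2 fold change 1.61) and Cytip, a cytohesin-binding adaptor of leukocytes, at 18.1 ± 7.70 and 88.9 ± 52.2 CPM (log2 fold change 2.14), both at an edgeR adjusted p of 0.369. Atp8b4, Gpr132, Emb and Phactr2 were higher by log2 fold changes of 0.71 to 1.14. Il1rn, the antagonist of the interleukin 1 receptor, stood at 9.55 ± 4.38 and 39.6 ± 15.1 CPM (log2 fold change 2.07, edgeR adjusted p = 0.369).

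Lower in ancrod mice, again without passing the test, was Hes1, a Notch target gene, at 68.3, 68.3, 125 and 153 CPM in control and at 33.6, 43.8, 50.0 and 24.1 CPM in ancrod mice (log2 fold change -1.53, edgeR adjusted p = 0.369). H2-Q7, a non-classical MHC class I gene whose reads may be shared with close relatives, stood at 90.2 ± 17.8 and 36.8 ± 15.3 CPM (log2 fold change -1.31, edgeR adjusted p = 0.40). Immp2l, Wls, Adcy7, Atp6v0a1, Kdm3a, Nfat5 and Amdhd2 had log2 fold changes of -0.88 to -0.64. Wls carries Wnt proteins to the surface and Adcy7 makes cyclic AMP.

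The markers that named the class overlapped between the groups. Cd36 stood at 88.8, 149, 786 and 108 CPM in control and at 273, 368, 180 and 255 CPM in ancrod mice (log2 fold change -0.14, SE 0.53). Ccl7 stood at 123, 161, 761 and 656 CPM in control and at 655, 806, 349 and 616 CPM in ancrod mice (log2 fold change 0.45, SE 0.44). Control mouse 3 was high in both and the groups overlapped, with edgeR adjusted p of 0.992 and 0.931. The log2 fold changes of Mrc1 (-0.40) and Pf4 (-0.07), genes of the definition, are given without a test.

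Across gene lists of macrophage function no list held a called gene except C-type lectins, through Clec4e. Clec4e had been called in an earlier analysis, and the lists were chosen with earlier results of these data known. Of 12 tested C-type lectin and signalling genes 5 were higher and 7 lower (median log2 fold change -0.05), with Syk at 229 ± 61.8 and 327 ± 50.1 CPM and Fcer1g at 2506 ± 390 and 2356 ± 170 CPM (SD, n = 4). Clec4n, the gene of the lectin Dectin-2, stood at 139 ± 39.7 and 110 ± 16.5 CPM. The lectin list as a whole was split in direction.

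Genes of glycolysis and hypoxia stood slightly higher in ancrod mice, none past the test. All 10 tested genes of glycolysis and hypoxia had a positive log2 fold change (median 0.31, against -0.01 for all genes, of which 48.5% were positive), and 4 did not overlap between groups, against 1.81% of all genes in this direction. Gapdh stood at 660 ± 99.3 and 825 ± 33.3 CPM, Eno1 at 81.6 ± 28 and 142 ± 24.9 CPM, and Aldoa at 159 ± 35.1 and 221 ± 21.1 CPM (SD, n = 4). The list's sum ran from 1478 to 1932 CPM in control and from 2011 to 2200 CPM in ancrod mice. This list was singled out of 30 after the values were seen, and inflammatory macrophage markers outside the definition moved with it, at 2754 to 4306 and 4115 to 6710 CPM, and their part in the difference was not tested. Spp1, which cell-free RNA held at 13760 CPM, was among these markers.

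Most lysosome and complement genes had negative fold changes, as did 51.5% of all genes, and the sums of both lists overlapped between groups. Of 16 lysosome genes outside the definition 15 had a negative log2 fold change (median -0.13), with Hexa at 693 ± 47.5 and 570 ± 8.85 CPM without overlap. Of 8 complement genes 6 were lower (median -0.24), with C1qc at 2812 ± 336 and 2248 ± 108 CPM, without overlap, and C1qa at 4109 ± 329 and 3403 ± 380 CPM. None passed the test, with edgeR adjusted p of 0.688 and more. Heme and iron genes were split, 5 higher and 5 lower (median 0.01), with the ferritin chain Fth1 at 8914 ± 890 and 10416 ± 1091 CPM and Slc40a1 at 91.1 ± 46.4 and 37.9 ± 25.5 CPM.

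Secreted factors gave a mixed picture. Of 12 chemokines outside the definition 7 were higher and 5 lower (median 0.29), with Ccl9 at 240 ± 87.2 and 377 ± 59.2 CPM and Ccl4 at 1709 ± 679 and 1661 ± 697 CPM. Of 13 growth factors and cytokines 9 were higher (median 0.24), with Gas6 among the lower at 533 ± 160 and 352 ± 36.7 CPM, and of 10 matrix genes 8 were higher (median 0.27). In the matrix list Spp1 stood at 1362 ± 322 and 2355 ± 904 CPM and Adam8, a cell surface protease, at 40.1 ± 13.6 and 75.9 ± 25.3 CPM (SD, n = 4). Cell-free RNA held Spp1 at 13760 CPM, above its level in the cells of either group. The 6 MHC class II genes were all slightly higher (median 0.17), with Cd74, the invariant chain, at 2245 ± 1233 and 2537 ± 294 CPM. Receptors of fibrinogen and genes of coagulation were split, 6 higher and 5 lower (median 0.00), with the integrin chain Itgav at 575 ± 210 and 455 ± 182 CPM. No gene of these 5 lists passed the test.

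**Figure D5:**
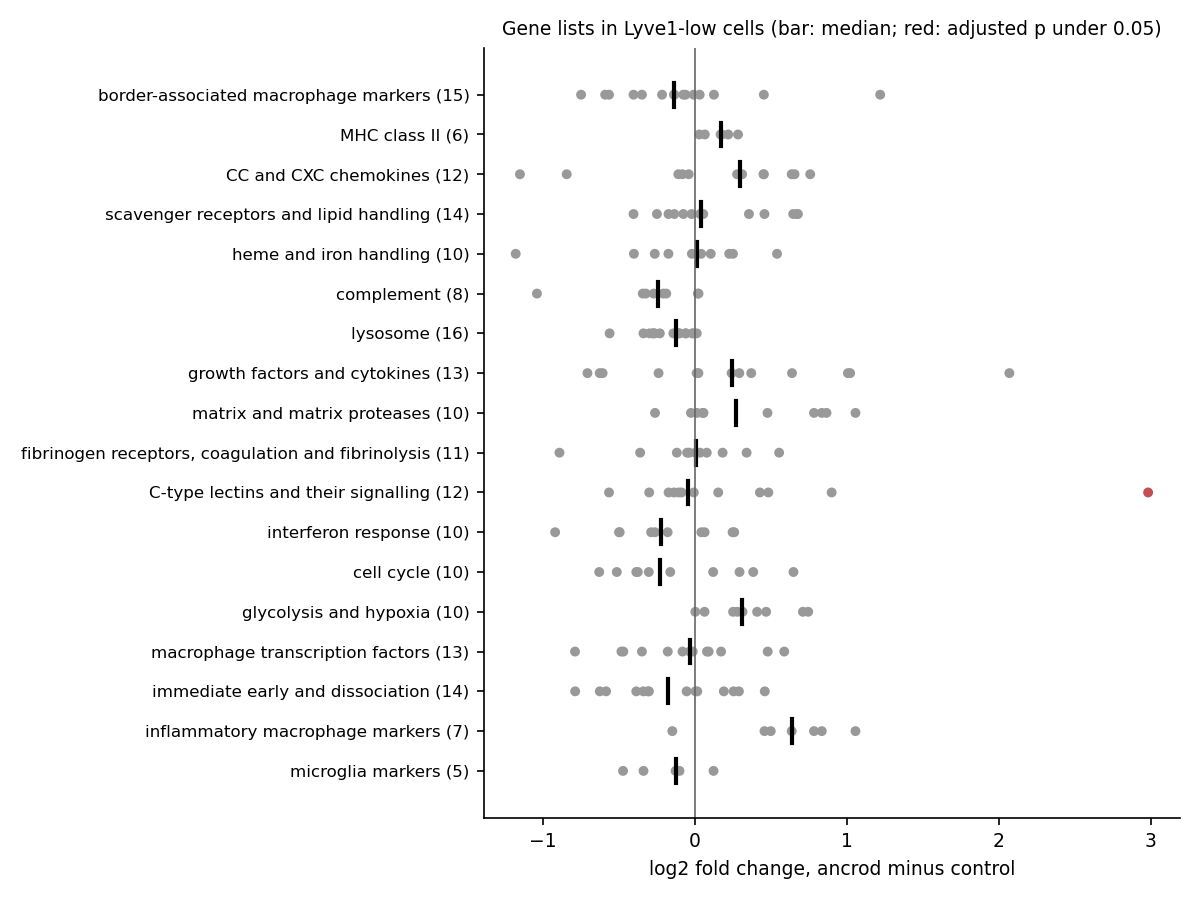
Log2 fold change, ancrod minus control, of the tested genes of each list in the summed Lyve1-low cells, 1 point per gene, with the list's median. Points of the glycolysis and hypoxia list all lie at or above 0 (median 0.31) and 15 of 16 lysosome genes below it (median -0.13), while the C-type lectin list lies around 0 apart from Clec4e (2.98).

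Proliferation, interferon response and stress genes did not separate the groups as lists. Of 10 cell cycle genes 4 were higher and 6 lower (median -0.23), and of 10 interferon genes also 4 and 6 (median -0.22). Of 14 immediate early genes, which rise on tissue dissociation, 6 were higher and 8 lower (median -0.18), with Ier2 at 219 ± 22.1 and 143 ± 40.1 CPM without overlap and Fos at 1284 ± 372 and 1292 ± 272 CPM. Of 13 transcription factors 5 were higher (median -0.04), with Klf2 among the lower at 750 ± 258 and 428 ± 185 CPM. Of 15 border-associated macrophage markers 11 were lower (median -0.14), with Folr2 at 308 ± 95.3 and 209 ± 38.9 CPM, and 6 of 7 inflammatory macrophage markers outside the definition were higher (median 0.64). No gene of these lists passed the test.

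To ask whether the response was particular to Lyve1-low cells, its difference from that of the other macrophages was tested within mice. Against Lyve1-positive cells, 0 of 8177 genes (0%) passed edgeR's interaction test at an adjusted p of 0.05 in 7 mice, with 378 at an unadjusted p under 0.05 and 3 called by DESeq2 (Itgav, Samd4 and Colec12). Clec4e went from 4.57 to 47.0 CPM in Lyve1-positive cells, and its log2 fold change in Lyve1-low cells was greater by 0.24 (SE 1.23). Tnfsf9 went from 12.1 to 65.9 CPM there, with a difference of -0.58 (SE 0.90). By mouse, Clec4e in Lyve1-positive cells stood at 3.16, 10.54 and 0 CPM in control mice 2, 3 and 4 and at 37.4, 76.3, 10.59 and 63.9 CPM in ancrod mice, with ancrod mouse 3 barely above control mouse 3. Tnfsf9 there stood at 12.6, 14.1 and 9.46 CPM in control and at 90.1, 124, 41.0 and 8.33 CPM in ancrod mice, so ancrod mouse 4 lay below every control mouse. The errors leave room for large differences either way. The 5 genes with the lowest p were Pik3r5, Cxcl9, Itgav, Samd4 and Colec12, with an edgeR adjusted p of 0.246 at the lowest. Pik3r5, a regulatory subunit of a PI3 kinase, went from 133 to 156 CPM in Lyve1-low and from 20.4 to 95.7 CPM in Lyve1-positive cells, a difference of -1.95 (SE 0.31). For Itgav, Samd4 and Colec12 the differences were -1.52, -2.04 and -1.73. Cxcl9, an interferon-induced chemokine, was at 0 in the control Lyve1-low cells and in the ancrod Lyve1-positive cells, so no fold is given.

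Against inflammatory macrophages, 0 of 10814 genes (0%) passed in 8 mice, with 523 at an unadjusted p under 0.05 and 2 called by DESeq2 (Clec4e and Rps27a). Clec4e went from 11.9 to 85.5 CPM in Lyve1-low cells, scaled together with the other class, and from 56.0 to 61.1 CPM in inflammatory macrophages, so control Lyve1-low cells stood below inflammatory macrophages. The difference of the log2 fold changes was 3.00 (SE 0.44), with an edgeR adjusted p of 0.160, the lowest of all genes. Il1rn followed at 2.74 (SE 0.54), and Rbpms, Arl5c and Sntb2 had differences of 1.81, 1.90 and 1.00. For Tnfsf9 the difference was 1.15 (SE 0.53, edgeR adjusted p = 0.986).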

How the data were processed

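Single-cell RNA-seq was measured in 8 mice with 10x 3′ libraries, 1 library per mouse. Per the labels the authors made the deposited UMI counts per gene and droplet with Cell Ranger 7.1.0 and STAR on GRCm39, unfiltered and not normalized. Groups, batches and replicate numbers came from the labels. Droplets with under 2000 UMIs or 20% or more mitochondrial UMIs were left out, which also leaves out shallow cells, and cell-free RNA was read from droplets of up to 100 UMIs. Levels are UMIs per 10000 in a cell or CPM in summed cells. The members, gene lists and tests were chosen with earlier results of these data known, so they are not independent of them, and 2 listed genes were not found in the files. Most genes were named by fixed rules: label markers, called genes, the 10 separated genes each way with the lowest p at 50 CPM or more, per list the most expressed and lowest p genes, the 5 lowest p of each interaction, and the 12 highest and lowest per class profile. Others, among them genes of the MHC class II ends, Clec4n and genes called only in an alternative, were named after their values were seen. Some genes are not reported here.

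Shares were compared between mice by exact two-sided permutation of means. Summed raw counts were tested with edgeR 4.0.16 (R 4.3.3), using filterByExpr, TMM scaling and the quasi-likelihood test, Benjamini-Hochberg adjusted over all genes tested, and with DESeq2 1.42.0 as an alternative. Interactions used a mouse block and mice with at least 10 cells of each class. The scripts were tested on simulated counts. Doublets were marked as the highest Scrublet scores (scanpy 1.11.5) at an assumed rate of 0.8% per 1000 droplets. They were kept, and leaving them out was an alternative. Alternatives varied the definition, depth, scaling, filter, batch and replicates. The limits on microglial genes at 3, on neural markers, on division genes and on Gpnmb, Arg1 and Fabp5, and the newer quasi-likelihood fit, were added after seeing the data. Each mouse is 1 replicate, and the precision rests on 11 to 42 selected cells per mouse.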

Additional observations from a re-analysis of the deposited data

Results flagged for a closer look

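In 178 groups of 4 mice, 11 held a mouse whose distance to its nearest neighbour over the group's range passed the 95% critical value of Dixon's test, and chance alone gives about 5% of groups. In control mice these were Kdm3a in mouse 1 (54.7 CPM, the others 72.3 to 75.9), Il1rn in mouse 2 (16.1 CPM, the others 6.83 to 8.13), Cd36 and Ifi204 in mouse 3 (786 CPM, the others 88.8 to 149, and 117 CPM, the others 205 to 220) and Slc1a2 in mouse 4 (603 CPM, the others 2.71 to 34.2). In ancrod mice they were Clec4d and Slc1a2 in mouse 1 (131 CPM, the others 103 to 106, and 920 CPM, the others 38.6 to 113) and Aldoa and Itgav in mouse 2 (253 CPM, the others 210 to 211, and 724 CPM, the others 335 to 394). H2-Ab1 and H2-Eb1 in ancrod mouse 3 stood at 1020 and 1237 CPM, the others at 741 to 770 and 828 to 876. In edgeR's interaction test no gene's response differed between Lyve1-low cells and the other macrophages at an adjusted p of 0.05, while DESeq2 called 3 genes against Lyve1-positive cells and 2 against inflammatory macrophages, and edgeR with no low-count filter 11 and 2.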

How the results depend on the processing

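The difference in the share of droplets kept its direction under all 22 alternatives, at 0.257 to 0.664 percentage points, and p = 0.0286 in 20 (exact permutation); it was 0.353 with the replicate block (exact p = 0.125) and 0.369 in batch 1 only (exact p = 0.10), the smallest p these allow. The share of border-associated macrophages passed no threshold (21 alternatives, 1.81 to 18 percentage points).

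Of genes changed in the Lyve1-low cells, 2 in the report, leaving out a mouse gave 0 to 2 (0 without control mouse 1, control mouse 3 or ancrod mouse 3). It was 6 with the replicate block (Clec4e, Nrg1, Samd4, Ccl5, Aldoc and Tnfsf9) and 5 with DESeq2 (Clec4e, Tnfsf9, Cytip, Rab11fip1 and Hes1). It was 1 in batch 1 only, at a floor of 5000 UMIs and with inflammatory genes under 5. It was also 1 without cells marked by the sum of Ly6c2, Chil3 and Plac8, without Scrublet doublets, and without neural-marked or dividing cells (Auts2 in the last). It was 0 without any Lyve1 or Cd163 UMI, with the sum of Mrc1, Pf4, F13a1 and Cbr2 at 10 or more, and with microglial genes under 3. Thinning also gave 0, but only 2081 genes were tested there. Clec4e and Tnfsf9 were not among them, so thinning does not bear on their calls. Clec4e passed in 18 of 25 settings (log2 fold change 1.80 to 3.67, edgeR or DESeq2 adjusted p 7.9e-07 to 0.276) and Tnfsf9 in 8 of 25 (1.16 to 2.54, adjusted p 5.9e-04 to 0.597).

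Interactions with Lyve1-positive cells, 0 in the report, numbered 0 to 1 when a mouse was left out (1, Samd4, without ancrod mouse 2), 11 with no filter and 3 with DESeq2. Those with inflammatory macrophages, also 0, numbered 2 with no filter, 2 with DESeq2 and 1, Clec4e, with inflammatory genes under 5. The log2 fold change of Emp1 (0.04) turned to -0.020 without Lyve1 or Cd163 UMIs and -0.20 with inflammatory genes under 5, and ranged from -0.17 to 0.38 when a mouse was left out. The causes were not tested. Same-numbered mice did not deviate together (correlations 0.008, -0.015, 0.130 and -0.013 over 3695 genes, 1 of 4 mice closest to its own number), so the replicate numbers were not read as pairs. With 2 to 6 UMIs of Clec4e per control mouse, counting error limits its fold change.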
